A study of Danio rerio with 30 samples.

Results

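Here 45 genes that drive DNA replication and the passage through the cell cycle are described in the adult zebrafish telencephalon after a stab wound. They run from the MCM helicase that opens replication origins to the kinases, condensins and spindle proteins of mitosis. The list was made by gene name, not by a cut on measured change, though with earlier results of these data known. The probe set that carries the gene's symbol alone stands for each gene, and the one with the highest mean where there were several. Of the 45 genes, 38 had such a probe set, and 33 of these passed a level filter, a linear group mean above 20 in at least 1 group, and were tested. The whole array holds 75212 probe sets, of which 40670 passed the same filter, covering 14372 genes named by a single symbol.

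RNA of the whole telencephalon of wild-type fish, aged 3 to 5 months per the labels, was hybridised to Affymetrix Zebrafish Gene 1.0 ST arrays. In the skull injury a micro-knife was pushed through the skull into the medial telencephalon, and in the nostril injury the brain was reached through the nostril, in both cases in both hemispheres. Tissue was taken at 1, 2, 3 and 7 days post injury (dpi), with 4 skull replicates at 3 dpi and 3 replicates in each of the other 7 injury groups. They were compared with intact telencephalon, with 4 replicates, and all groups are labelled wild-type. Nothing in the labels says whether replicates are separate fish or pools, so each p-value rests on the scatter among these arrays, part of which may be technical.

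A dividing cell first licenses its replication origins, when Cdc6 and Cdt1 load the MCM helicase, and in S phase the clamp Pcna tethers the polymerases while ribonucleotide reductase, thymidylate synthase and thymidine kinase supply nucleotides. Cyclin B with Cdk1 then drives entry into mitosis, condensin and topoisomerase II compact and untangle the chromosomes, and Cdc20 turns on the APC/C, the ubiquitin ligase that ends mitosis. In the adult zebrafish telencephalon, ependymoglia at the ventricle and oligodendrocyte progenitors divide, and microglia and infiltrating leukocytes can divide after injury. In RNA of whole tissue, fewer cells of a type and less RNA per cell cannot be told apart, nor can the dividing cell type be read from these genes.

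The arrays had medians between 4.22 and 4.35 on the log2 scale. Replicates correlated at r = 0.979 to 0.988 over all probe sets, except at skull 3 dpi, where r was 0.963 to 0.974. Telencephalic genes were measured: the group means of the pallial tbr1b lay between 9.53 and 9.94 and those of the subpallial dlx5a between 9.79 and 10.21 (log2), while foxg1b, with group means of 3.27 to 3.56, did not pass the level filter. The 2 technical arrays of intact replicate 1 differed by a median of 0.29 over the tested members, and by 0.975 for the member that differed most.

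As a group the genes stood highest at 2 dpi after both injuries. The mean of the 33 tested genes was 5.57 ± 0.11 (log2, SD over replicates) in intact brains, then 5.61 ± 0.12, 5.85 ± 0.03, 5.77 ± 0.12 and 5.63 ± 0.04 at 1, 2, 3 and 7 dpi of the skull injury, and 5.56 ± 0.12, 5.87 ± 0.19, 5.75 ± 0.11 and 5.60 ± 0.09 at the same times of the nostril injury. At 2 dpi each replicate of both injuries had a higher mean than each intact replicate: 5.86, 5.82 and 5.87 after skull and 6.09, 5.73 and 5.80 after nostril injury, against 5.52, 5.47, 5.57 and 5.73 in intact brains. The lowest injured value, that of nostril replicate 2, equalled the highest intact one, that of intact replicate 4, to 2 decimals. At 1, 3 and 7 dpi the injured and intact ranges overlapped. Of the 33 genes, 28 had an intact linear mean above 20, and the others were tested only because of an injury group. The mean was not taken over the 28 alone.

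Few changes of single genes passed the test, limma's moderated test with Benjamini-Hochberg adjustment over the 40670 probe sets. Only skull injury at 3 dpi gave called genes against intact brains: tyms and ccnb1 were higher, 2 of 33, where 3.1% of all probe sets were called higher, 4.83% lower and 7.93% in either direction. In the other 7 comparisons with intact brains limma called 0 members, where it called 0.612% (skull) and 0.836% (nostril) of all probe sets at 1 dpi, 0.302% and 0.529% at 2 dpi, 0.0861% at nostril 3 dpi, and 0.708% and 1.75% at 7 dpi. The count of calls thus rests on 2 genes in 1 group. Both had larger estimates at nostril 2 dpi without a call, 1.04 for tyms and 0.64 for ccnb1 (log2). At skull 3 dpi these were 0.82 and 0.60.

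The share of genes that reached an unadjusted p under 0.05 was less even. At 2 dpi, 11 of 33 (33.3%) did so as higher after skull and 17 of 33 (51.5%) after nostril injury, where 5.07% and 7.46% of all probe sets did. None was lower at that threshold at 2 or 3 dpi. At 3 dpi the counts were 7 (21.2%) after skull and 4 (12.1%) after nostril injury, beside 9.39% and 3.66% of all probe sets. At 1 dpi they were 2 and 0, and at 7 dpi 1 and 2, shares of 6.06%, 0%, 3.03% and 6.06% that lie near or under the 6.62%, 5.59%, 8.64% and 8.94% of all probe sets. Lower at that threshold was 1 gene each at 1 and 7 dpi of both injuries: ccnd1 and rrm1 after skull and dut and rrm1 after nostril injury. Of all probe sets, 3.93%, 3.99%, 16.2% and 6.3% were lower at 1, 2, 3 and 7 dpi of the skull injury and 4.6%, 5.1%, 3.41% and 7.39% at those of the nostril injury.

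**Figure D1:**
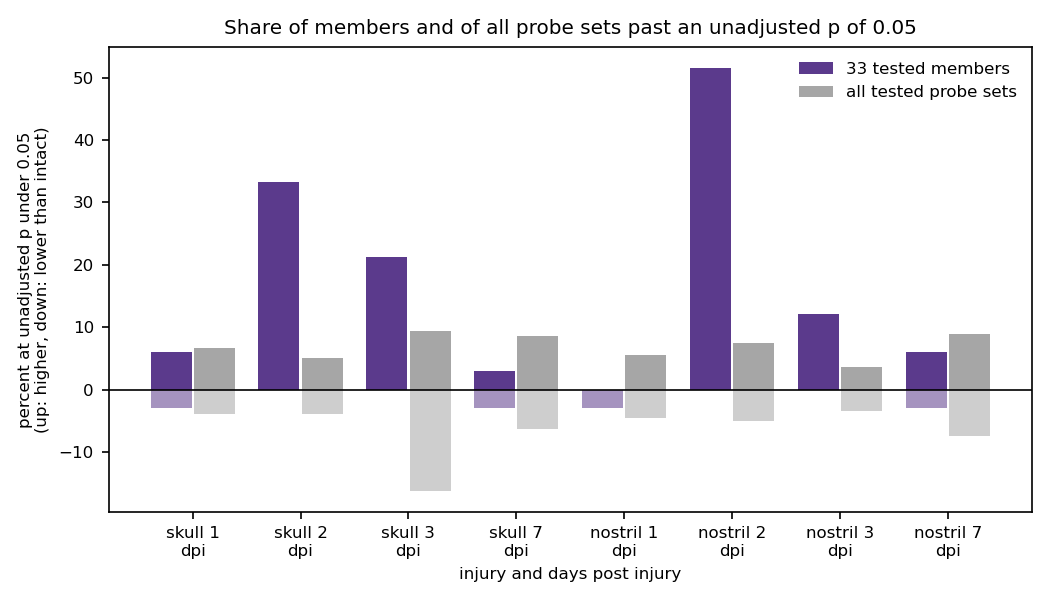
Percent of the 33 tested genes (violet) and of all tested probe sets (grey) past an unadjusted p of 0.05 in each injury group against intact brains, with genes higher than intact drawn upwards and genes lower than intact downwards. The violet bars reach 33.3% and 51.5% at 2 dpi of the skull and nostril injury, and stand near or below the grey ones at 1 and 7 dpi.

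The filter let in genes through the group in which they were high. Of the 33 genes, 5 (chaf1b, cdk1, cdc20, ncapg and kif23) had an intact mean under 20 and were tested only because of an injury group. Among the 28 with an intact mean above 20, 9 at skull 2 dpi and 13 at nostril 2 dpi were higher with an unadjusted p under 0.05. With the 5 unfiltered genes added the counts stayed at 11 and 17, of 38. The nostril count rested on 1 library: it was 4 without nostril 2 dpi replicate 1, 10 without intact replicate 2 and 10 when only the nostril 2 dpi and intact samples were fitted. The skull 2 dpi count stayed between 8 and 15 whichever replicate was left out. At 3 dpi the skull count was 4 without intact replicate 1, and the nostril count 1 without nostril 3 dpi replicate 1.

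Most genes lay above the intact mean at 2 and 3 dpi, 31 of 33 at skull 2 dpi and 28 at nostril 2 dpi, where 50.1% and 52.1% of all probe sets did, and 25 and 29 at 3 dpi, beside 41.9% and 51.3%. The median change against intact was 0.25 at skull 2 dpi and 0.34 at nostril 2 dpi on the log2 scale, and 0.25 and 0.19 at 3 dpi, while the median of all probe sets lay between -0.06 and 0.01 in these comparisons. Over the 28 genes with an intact mean above 20, 26 and 23 lay above intact at skull and nostril 2 dpi, and 20 and 24 at 3 dpi. Their median changes were 0.24 and 0.27 at 2 dpi and 0.20 and 0.18 at 3 dpi. All replicates lay above all intact replicates for 12 genes at skull 2 dpi and 9 at nostril 2 dpi, against 6.63% and 7.55% of all probe sets, and for 4 and 3 genes at 3 dpi, against 3.47% and 4.07%. Among the 28 genes with an intact mean above 20 these counts were 9 and 7 at skull and nostril 2 dpi and 2 and 1 at 3 dpi. Of the 33 genes 14 had their highest group mean at nostril 2 dpi and 7 at skull 2 dpi, groups that held the highest mean of 8.19% and 5.38% of all probe sets. Among the 28 genes these counts were 11 and 6. No gene of the 33 had its highest mean in intact brains or at skull 7 dpi.

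**Figure D2:**
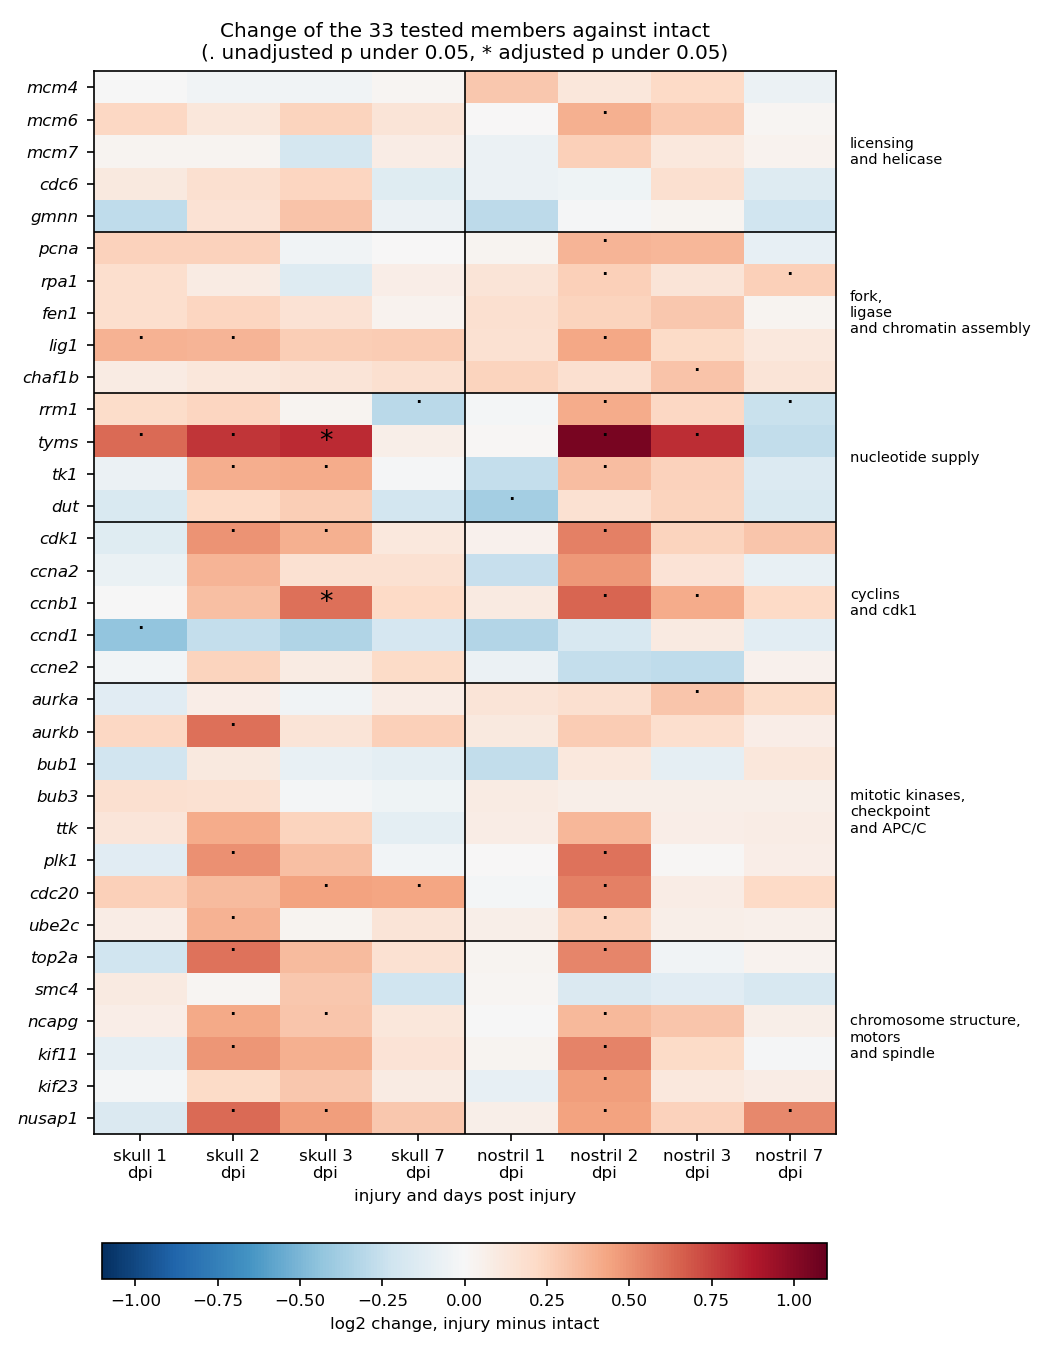
Change against intact brains (colour, log2) of the 33 tested genes in rows, ordered by role, for the 4 skull groups and the 4 nostril groups in columns. Dots mark an unadjusted p under 0.05 and asterisks an adjusted p under 0.05, which only tyms and ccnb1 at skull 3 dpi reached; most cells of the 2 dpi columns are red.

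Among the enzymes that make DNA precursors, tyms had the largest change of the 33 genes. Thymidylate synthase, tyms, which makes the thymidine nucleotide, read 5.78, 5.78, 6.14 and 6.75 in intact brains and then 6.69, 6.66 and 6.86 at 1 dpi, 6.76, 6.92 and 7.03 at 2 dpi, 6.96, 7.52, 6.93 and 6.35 at 3 dpi, and 6.38, 6.05 and 6.11 at 7 dpi of the skull injury. After nostril injury it read 6.12, 6.56 and 5.70 at 1 dpi, 7.48, 6.72 and 7.26 at 2 dpi, 7.29, 6.89 and 6.61 at 3 dpi, and 5.71, 6.13 and 5.70 at 7 dpi. Its level was thus high from 1 to 3 dpi after skull injury and at 2 and 3 dpi after nostril injury, with intact replicate 4 in the range of the injured samples and both 7 dpi groups overlapping the intact values. Against intact brains tyms rose by 0.82 ± 0.24 at skull 3 dpi (log2, SE; 1.77-fold, adjusted p = 0.0335). The estimate was larger at nostril 2 dpi, 1.04 ± 0.26 (2.06-fold), but with an adjusted p of 0.0665, and it was 0.79 ± 0.26 at skull 2 dpi and 0.81 ± 0.26 at nostril 3 dpi (adjusted p = 0.313 and 0.376). The skull 3 dpi call was lost, with an adjusted p of up to 0.0969, on leaving out any 1 of replicates 1 to 3 of the intact group or of the skull 3 dpi group. The nostril 2 dpi change passed the test without intact replicate 4 (adjusted p = 0.0189) or without nostril 2 dpi replicate 2 (0.0372), and its adjusted p ran from 0.0189 to 0.32 over 20 alternatives.

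Ribonucleotide reductase makes deoxynucleotides, and its large subunit rrm1 had values of 6.42, 6.29, 6.47 and 6.63 in intact brains, then 6.56, 6.67 and 6.75 at 1 dpi, 6.56, 6.67 and 6.83 at 2 dpi, 6.50, 6.45, 6.43 and 6.54 at 3 dpi, and 6.15, 6.05 and 6.28 at 7 dpi of the skull injury. The nostril series of rrm1 was 6.44, 6.60 and 6.26 at 1 dpi, 6.88, 6.93 and 6.78 at 2 dpi, 6.97, 6.54 and 6.54 at 3 dpi, and 6.08, 6.43 and 6.12 at 7 dpi. All nostril 2 dpi replicates lay above all intact ones, and all skull 7 dpi replicates below them. The estimates were 0.41 ± 0.12 at nostril 2 dpi and -0.29 ± 0.12 at skull 7 dpi against intact brains, with adjusted p-values of 0.127 and 0.236. Thymidine kinase, tk1, which salvages thymidine, read 6.06, 6.38, 6.42 and 6.64 in intact brains, then 6.25, 6.33 and 6.34 at 1 dpi, 6.68, 6.87 and 6.77 at 2 dpi, 7.05, 7.19, 6.47 and 6.43 at 3 dpi, and 6.35, 6.26 and 6.48 at 7 dpi after skull injury. Nostril injury gave tk1 values of 6.001, 6.37 and 5.97 at 1 dpi, 6.91, 6.57 and 6.66 at 2 dpi, 6.82, 6.61 and 6.45 at 3 dpi, and 6.26, 6.20 and 6.20 at 7 dpi. All tk1 values of skull 2 dpi lay above the intact ones, while those of skull 3 dpi spread from 6.43 to 7.19. The changes of tk1 were 0.41 ± 0.15 at skull 3 dpi and 0.40 ± 0.16 at skull 2 dpi (adjusted p = 0.0894 and 0.471). The enzyme that clears dUTP, dut, had 6.52, 6.61, 6.60 and 7.25 in intact brains, where replicate 4 stood apart, and then 6.60, 6.62 and 6.50 at 1 dpi, 6.96, 6.96 and 6.99 at 2 dpi, 7.21, 7.11, 6.87 and 6.87 at 3 dpi, and 6.90, 6.24 and 6.48 at 7 dpi after skull injury. In the nostril series dut read 6.11, 6.62 and 6.39 at 1 dpi, 7.06, 6.76 and 6.92 at 2 dpi, 7.24, 6.98 and 6.75 at 3 dpi, and 6.74, 6.56 and 6.44 at 7 dpi, with 1 dpi at -0.37 ± 0.17 against intact (adjusted p = 0.448). The small reductase subunit rrm2 had no probe set under that symbol.

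**Figure D3:**
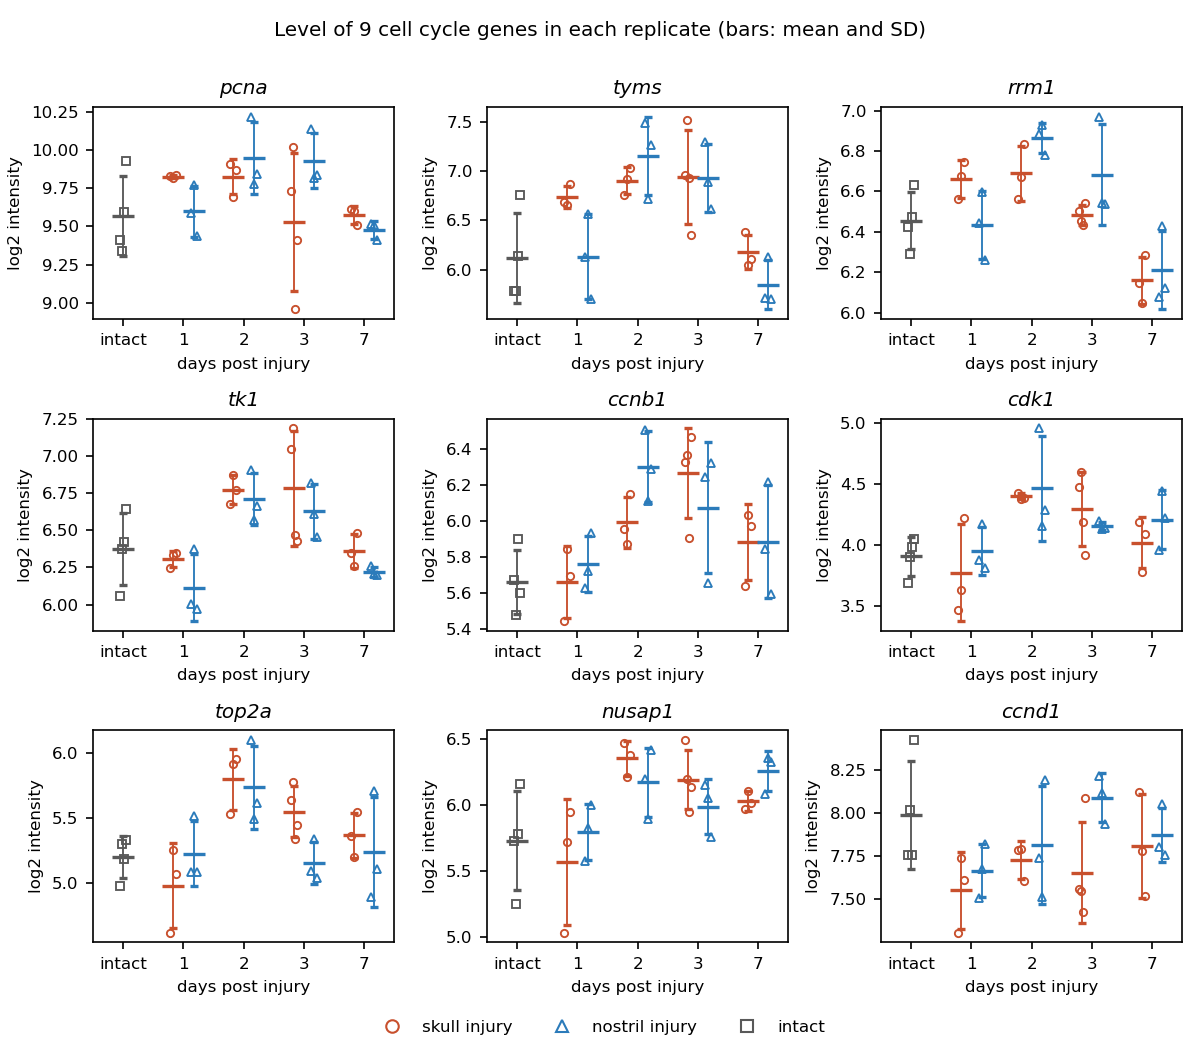
Level (log2 intensity, own scale in each panel) of 9 of the genes in every replicate by days post injury, with skull injury in red, nostril injury in blue and intact brains in grey; horizontal bars are group means and whiskers 1 SD. The values of tyms, rrm1, tk1 and top2a lie high at 2 dpi, and nostril 2 dpi replicate 1 is the highest sample of pcna, cdk1, ccnb1 and top2a.

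At the replication fork the estimates at 2 dpi were smaller than those of tyms. The mean of the 5 genes of this role, chaf1b included, was 6.71 to 6.997 in intact replicates. Every replicate was higher at skull 1 dpi (7.065 to 7.119), nostril 2 dpi (7.13 to 7.25) and nostril 3 dpi (7.02 to 7.325). Skull 2 dpi, at 7.00 to 7.155, began just above the highest intact value, and the other groups overlapped the intact range. The sliding clamp pcna, the usual label of cells in S phase, read 9.41, 9.34, 9.60 and 9.93 in intact brains, then 9.83, 9.82 and 9.84 at 1 dpi, 9.91, 9.69 and 9.87 at 2 dpi, 9.73, 10.02, 8.96 and 9.41 at 3 dpi, and 9.62, 9.60 and 9.51 at 7 dpi after skull injury. After nostril injury pcna read 9.59, 9.77 and 9.44 at 1 dpi, 10.22, 9.78 and 9.84 at 2 dpi, 10.14, 9.81 and 9.84 at 3 dpi, and 9.52, 9.51 and 9.41 at 7 dpi. Skull 1 dpi and nostril 2 and 3 dpi lay in the upper part of the intact range or above it, and the skull 3 dpi values spread over more than 1 log2 unit, the lowest below every intact value. The changes were 0.26 ± 0.18 at skull 2 dpi and 0.38 ± 0.18 at nostril 2 dpi, and -0.04 ± 0.16 at skull 3 dpi and 0.36 ± 0.18 at nostril 3 dpi, with adjusted p-values of 0.705, 0.373, 0.902 and 0.711. The single-strand binding protein rpa1 read 7.40, 7.23, 7.38 and 7.25 in intact brains, then 7.53, 7.36 and 7.61 at 1 dpi, 7.35, 7.43 and 7.45 at 2 dpi, 7.11, 7.32, 7.27 and 7.00 at 3 dpi, and 7.45, 7.26 and 7.45 at 7 dpi after skull injury. Nostril injury gave rpa1 values of 7.57, 7.40 and 7.40 at 1 dpi, 7.60, 7.53 and 7.61 at 2 dpi, 7.54, 7.34 and 7.49 at 3 dpi, and 7.43, 7.70 and 7.59 at 7 dpi. Its nostril 2 and 7 dpi replicates all lay above the intact ones, by 0.27 ± 0.10 and 0.26 ± 0.10 (adjusted p = 0.245 and 0.174).

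The ligase lig1, which joins Okazaki fragments, had changes of 0.39 ± 0.17 at skull 1 dpi and 0.38 ± 0.17 at skull 2 dpi, and of 0.42 ± 0.17 at nostril 2 dpi, and in these 3 groups every replicate was above every intact one. The adjusted p-values of lig1 were 0.437, 0.532 and 0.314. The flap nuclease fen1 and the chromatin assembly subunit chaf1b were higher than intact in all 8 injury groups, by 0.03 to 0.30 for fen1 and by 0.09 to 0.32 for chaf1b, and the smallest adjusted p of either was 0.525. With an intact linear mean of 16.4, chaf1b passed the filter only through nostril 3 dpi, where it was 20.4.

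The licensing genes had the smallest change in their mean at 2 dpi among the 6 roles. The mean of the 5 tested genes of this role was 5.27 ± 0.15 in intact brains and lay between 5.20 and 5.44 in the 8 injury groups. The helicase subunit mcm6 was 0.13 ± 0.19 and 0.39 ± 0.19 above intact at skull and nostril 2 dpi, and mcm7 0.03 ± 0.18 and 0.26 ± 0.18, with overlapping replicates in each case. For mcm4 the values were 4.31, 4.23, 4.29 and 4.54 in intact brains, then 4.38, 4.28 and 4.36 at 1 dpi, 4.25, 4.38 and 4.3 at 2 dpi, 3.94, 4.38, 4.21 and 4.70 at 3 dpi, and 4.09, 4.63 and 4.38 at 7 dpi after skull injury. Nostril injury gave mcm4 values of 4.57, 4.72 and 4.64 at 1 dpi, 4.38, 4.37 and 4.67 at 2 dpi, 4.78, 4.36 and 4.56 at 3 dpi, and 4.16, 4.31 and 4.38 at 7 dpi. The nostril 1 dpi replicates of mcm4 all lay above the intact ones, by 0.30 ± 0.15 (adjusted p = 0.494), close to the median difference of 0.29 between the 2 technical arrays. The loader cdc6 was farthest from its intact mean of 4.88 at skull 3 dpi, with a mean of 5.11. Geminin, gmnn, which holds Cdt1 back once S phase has begun, was -0.28 ± 0.21 from intact at skull 1 dpi and 0.31 ± 0.19 at skull 3 dpi, neither past the test. The loader cdt1 and the subunit mcm3 did not pass the level filter, with highest linear group means of 17.8 and 10.2. The nearest genes on the other side of that limit were chaf1b, kif23 and cdk1, with 20.4, 21.1 and 22.1. The subunit mcm5 was only on a probe set shared with another gene, and mcm2 had none under that symbol.

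Cyclin B1, the partner of Cdk1 at the entry to mitosis, was the other called gene. ccnb1 read 5.67, 5.48, 5.90 and 5.60 in intact brains, then 5.45, 5.85 and 5.69 at 1 dpi, 5.96, 5.87 and 6.15 at 2 dpi, 6.33, 6.37, 5.91 and 6.46 at 3 dpi, and 5.64, 6.04 and 5.97 at 7 dpi after skull injury. In the nostril series it read 5.63, 5.73 and 5.93 at 1 dpi, 6.50, 6.11 and 6.29 at 2 dpi, 6.25, 5.66 and 6.32 at 3 dpi, and 5.84, 6.22 and 5.59 at 7 dpi. At skull 3 dpi and nostril 2 dpi all replicates exceeded all intact ones, though skull 3 dpi replicate 3, at 5.91, was close to the highest intact value of 5.90. ccnb1 rose by 0.60 ± 0.16 at skull 3 dpi (1.52-fold, adjusted p = 0.0247), and was 0.64 ± 0.17 above intact at nostril 2 dpi (adjusted p = 0.106). This call did not survive the loss of intact replicate 2 or 4, or of replicate 1 or 4 at skull 3 dpi, with adjusted p-values of 0.0541 to 0.0714. Cdk1 itself was dim, with a probe set at 3.69, 3.90, 3.99 and 4.05 in intact brains, then 3.47, 3.64 and 4.22 at 1 dpi, 4.43, 4.38 and 4.39 at 2 dpi, 4.48, 4.60, 4.19 and 3.92 at 3 dpi, and 4.19, 3.79 and 4.09 at 7 dpi after skull injury. Nostril injury gave cdk1 values of 3.88, 4.18 and 3.81 at 1 dpi, 4.96, 4.16 and 4.29 at 2 dpi, 4.196, 4.13 and 4.14 at 3 dpi, and 3.97, 4.44 and 4.22 at 7 dpi. All skull 2 dpi and nostril 2 and 3 dpi replicates of cdk1 lay above the intact ones, and the changes were 0.49 ± 0.19 at skull 2 dpi and 0.56 ± 0.19 at nostril 2 dpi (adjusted p = 0.444 and 0.21). As its intact linear mean was 15.03, cdk1 was tested only because of an injury group, so the filter favoured a value above intact.

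Neither tested cyclin of G1 had a mean above intact at 2 dpi of both injuries. Cyclin D1, ccnd1, which carries mitogen signals into the cycle, read 7.76, 8.02, 7.76 and 8.43 in intact brains, then 7.31, 7.74 and 7.62 at 1 dpi, 7.79, 7.79 and 7.61 at 2 dpi, 7.56, 7.55, 7.43 and 8.09 at 3 dpi, and 8.12, 7.78 and 7.52 at 7 dpi after skull injury. In the nostril series it read 7.51, 7.67 and 7.82 at 1 dpi, 7.74, 7.51 and 8.19 at 2 dpi, 8.22, 8.12 and 7.94 at 3 dpi, and 7.80, 8.05 and 7.76 at 7 dpi. Every skull 1 dpi replicate of ccnd1 lay below the intact ones, with a difference of -0.44 ± 0.18 (adjusted p = 0.396), and the mean was under the intact one in all groups but nostril 3 dpi. A second probe set of ccnd1 gave -0.40 at skull 1 dpi and, unlike the first, 0.01 at skull 3 dpi, where the first gave -0.34 ± 0.17. From 1 to 3 dpi the second rose by 0.42 after skull and 0.59 after nostril injury, and the first by 0.10 and 0.42. Cyclin E2, ccne2, which acts at the start of S phase, read 5.14, 4.71, 5.28 and 4.81 in intact brains, then 4.36, 5.49 and 5.01 at 1 dpi, 4.93, 5.12 and 5.65 at 2 dpi, 4.87, 5.14, 5.27 and 5.03 at 3 dpi, and 5.17, 5.08 and 5.35 at 7 dpi after skull injury. Nostril injury gave ccne2 values of 4.82, 5.26 and 4.68 at 1 dpi, 4.79, 4.95 and 4.43 at 2 dpi, 4.49, 4.85 and 4.78 at 3 dpi, and 4.89, 5.02 and 5.18 at 7 dpi, and in each injured group its values overlapped the intact ones. Its changes against intact were 0.25 ± 0.21 at skull 2 dpi and -0.26 ± 0.21 at nostril 2 dpi. The S and G2 cyclin ccna2 was 0.37 ± 0.30 and 0.48 ± 0.30 above intact at skull and nostril 2 dpi with overlapping replicates. ccnb2 and ccne1 stayed under the level filter in every group.

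The mean of the 8 mitotic kinase, checkpoint and APC/C genes was highest at 2 dpi, 5.52 ± 0.02 after skull and 5.50 ± 0.23 after nostril injury, against 5.20 ± 0.06 in intact brains, though not every gene followed it. Polo-like kinase plk1 was 0.50 ± 0.20 above intact at skull 2 dpi and 0.59 ± 0.20 at nostril 2 dpi (adjusted p = 0.445 and 0.191), and the kinase of the chromosomal passenger complex, aurkb, 0.60 ± 0.20 and 0.28 ± 0.20 (adjusted p = 0.318 and 0.595). The ubiquitin carrier ube2c, which serves the APC/C, had every replicate above intact at both, by 0.38 ± 0.11 and 0.25 ± 0.11, and the smallest adjusted p of any gene at skull 2 dpi, 0.244. The APC/C activator cdc20 read 4.203, 4.26, 4.18 and 4.16 in intact brains, then 4.26, 4.28 and 4.87 at 1 dpi, 4.78, 4.50 and 4.37 at 2 dpi, 4.34, 4.72, 4.67 and 4.86 at 3 dpi, and 4.50, 4.88 and 4.53 at 7 dpi after skull injury. Nostril injury gave cdc20 values of 4.26, 4.42 and 3.86 at 1 dpi, 5.16, 4.62 and 4.50 at 2 dpi, 4.39, 4.2 and 4.26 at 3 dpi, and 4.67, 4.46 and 4.15 at 7 dpi. The intact values of cdc20 lay close together, and every replicate of skull 2, 3 and 7 dpi and of nostril 2 dpi was above them. With an intact linear mean of 18.4, cdc20 was tested only because of an injury group, so the filter favoured a value above intact. It is also in the mean of the 8 genes. The cdc20 changes were 0.45 ± 0.17 at skull 3 dpi and 0.56 ± 0.18 at nostril 2 dpi (adjusted p = 0.0919 and 0.173).

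The spindle checkpoint genes showed less. The checkpoint kinase bub1 read 4.47, 4.60, 4.14 and 4.37 in intact brains, then 4.17, 4.47 and 3.90 at 1 dpi, 4.37, 4.82 and 4.32 at 2 dpi, 4.06, 5.00, 3.81 and 4.37 at 3 dpi, and 4.51, 4.06 and 4.28 at 7 dpi after skull injury. Nostril injury gave bub1 values of 4.33, 4.28 and 3.77 at 1 dpi, 4.65, 4.61 and 4.27 at 2 dpi, 4.37, 4.28 and 4.22 at 3 dpi, and 4.66, 4.43 and 4.46 at 7 dpi. These ranges overlapped throughout, except that 1 skull 3 dpi value, 5.00, lay above all other samples. Its partner bub3 was within 0.18 of its intact mean in each group, and the kinase ttk was 0.41 ± 0.21 and 0.36 ± 0.21 above intact at skull and nostril 2 dpi. The centrosome kinase aurka was highest at nostril 3 dpi, 0.31 ± 0.13 above intact (adjusted p = 0.612). Survivin, birc5a, did not pass the level filter, with a highest linear group mean of 15.7, and mad2l1 was only on a shared probe set.

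Genes of chromosome structure and the spindle had their highest means at 2 dpi, 5.08 ± 0.09 at skull and 5.05 ± 0.32 at nostril 2 dpi, against 4.69 ± 0.11 in intact brains. At skull 3 dpi their mean was 5.03 ± 0.07, with every replicate above the intact ones. At nostril 3 dpi it was 4.81 ± 0.105 and overlapped them. Among these genes, ncapg and kif23 had an intact linear mean under 20 and were tested only because of an injury group. Topoisomerase top2a, which untangles sister chromosomes, read 4.98, 5.30, 5.19 and 5.33 in intact brains, then 4.62, 5.25 and 5.07 at 1 dpi, 5.53, 5.91 and 5.95 at 2 dpi, 5.63, 5.78, 5.34 and 5.44 at 3 dpi, and 5.36, 5.20 and 5.54 at 7 dpi after skull injury. In the nostril series top2a read 5.08, 5.51 and 5.08 at 1 dpi, 6.10, 5.49 and 5.61 at 2 dpi, 5.09, 5.34 and 5.04 at 3 dpi, and 4.90, 5.71 and 5.11 at 7 dpi. All 2 dpi replicates of both injuries and all of skull 3 dpi lay above the intact values, and nostril 3 dpi overlapped them. The changes were 0.60 ± 0.19 at skull 2 dpi (1.51-fold) and 0.53 ± 0.19 at nostril 2 dpi (1.45-fold), with adjusted p-values of 0.296 and 0.229. The spindle protein nusap1 read 5.73, 5.25, 5.78 and 6.16 in intact brains, then 5.03, 5.72 and 5.95 at 1 dpi, 6.47, 6.21 and 6.38 at 2 dpi, 6.49, 6.20, 5.95 and 6.13 at 3 dpi, and 5.97, 6.11 and 6.01 at 7 dpi after skull injury. Nostril injury gave nusap1 values of 5.57, 5.82 and 5.997 at 1 dpi, 6.20, 5.90 and 6.42 at 2 dpi, 6.15, 6.05 and 5.75 at 3 dpi, and 6.08, 6.36 and 6.32 at 7 dpi. Each skull 2 dpi replicate of nusap1 lay above the intact range, by 0.62 ± 0.20 in the mean (adjusted p = 0.296), while at nostril 7 dpi, 0.53 ± 0.20, it overlapped that range.

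The motor kif11, which pushes the spindle poles apart, was 0.48 ± 0.23 and 0.55 ± 0.23 above intact at skull and nostril 2 dpi, with every replicate above the intact ones at both. The condensin subunit ncapg was 0.42 ± 0.16 and 0.36 ± 0.16 above intact at these times, and the cytokinesis motor kif23 0.21 ± 0.18 and 0.46 ± 0.18. The other tested condensin subunit, smc4, read 4.45, 4.98, 4.82 and 4.70 in intact brains, then 4.91, 5.03 and 4.56 at 1 dpi, 4.68, 4.69 and 4.90 at 2 dpi, 4.74, 5.12, 4.98 and 5.26 at 3 dpi, and 4.57, 4.43 and 4.55 at 7 dpi after skull injury. Nostril injury gave smc4 values of 4.31, 5.26 and 4.69 at 1 dpi, 4.71, 4.43 and 4.59 at 2 dpi, 4.73, 4.52 and 4.58 at 3 dpi, and 4.50, 4.54 and 4.63 at 7 dpi. Its means stayed within 0.22 of intact except at skull 3 dpi, 0.29 ± 0.16 (adjusted p = 0.242). No value is given for smc2, which shares its probe set, or for cenpf and mki67, which had no probe set under these symbols.

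**Figure D4:**
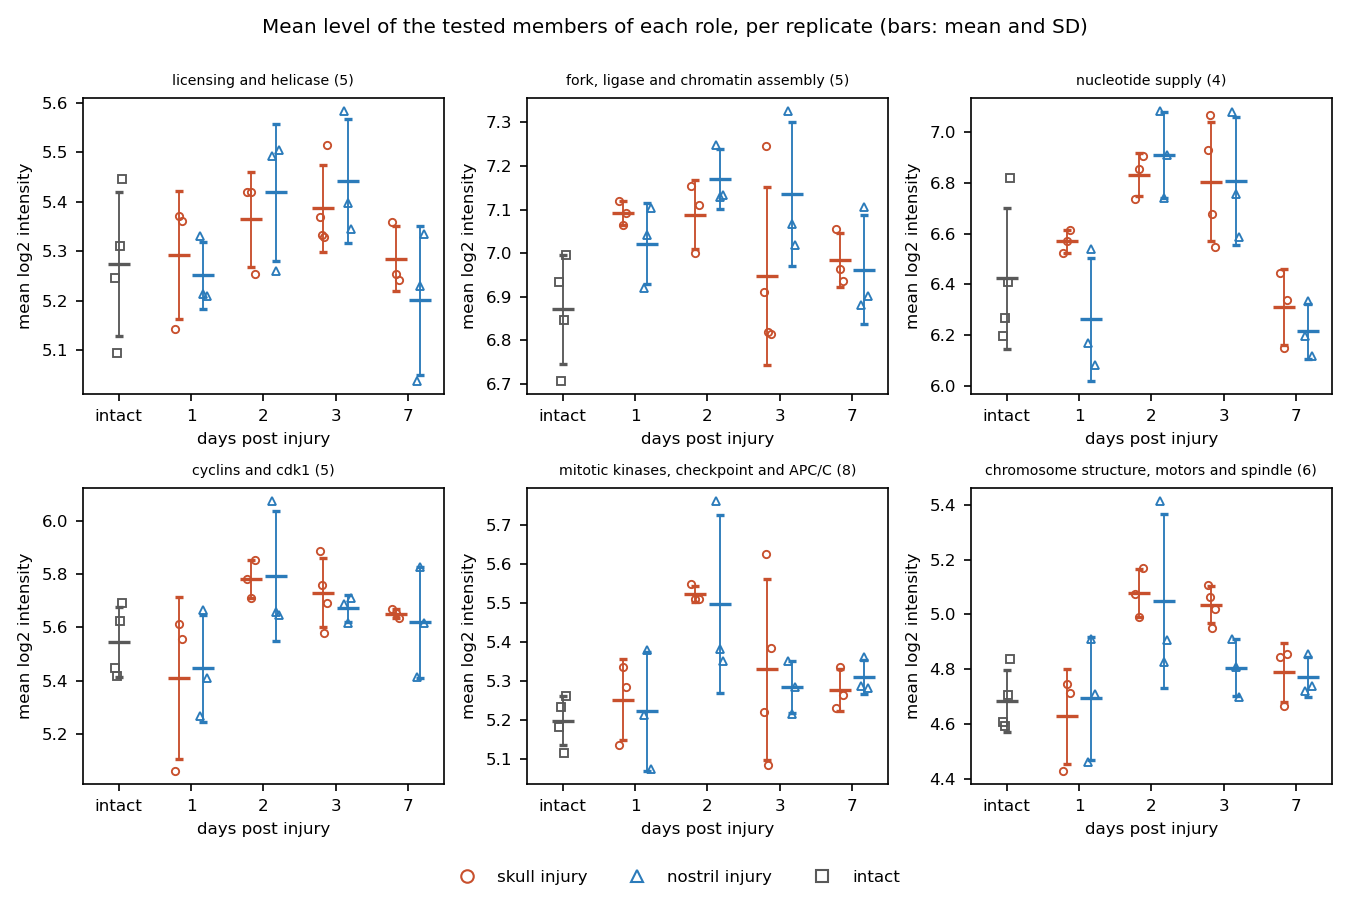
Mean log2 intensity of the tested genes of each role (their number in brackets) in every replicate, by days post injury, with skull injury in red, nostril injury in blue and intact brains in grey; bars are group means and whiskers 1 SD. The mitotic kinase panel shows all 2 dpi samples of both injuries above the intact range. The chromosome structure panel shows all 2 dpi samples but nostril replicate 2, and all skull 3 dpi samples, above it. The fork panel shows all skull 1 and 2 dpi and nostril 2 and 3 dpi samples above the intact range, the lowest skull 2 dpi sample only just. The licensing panel shows every injury group overlapping the intact one. All panels but the licensing and nucleotide ones include genes tested only because of an injury group.

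The injuries were also set against each other at each day. limma called 0 of 33 genes between skull and nostril injury at 1, 2, 3 and 7 dpi, where it called 0.0344%, 0%, 3.59% and 0% of all probe sets. At an unadjusted p under 0.05, 1, 1, 1 and 0 genes were higher after skull injury, beside 3.74%, 1.08%, 7.1% and 1.33% of all probe sets, and 4 genes were lower at 3 dpi, 12.1% beside 14.2%. The 4 were pcna, rpa1, ccnd1 and aurka, with differences of -0.41 ± 0.18, -0.28 ± 0.10, -0.43 ± 0.18 and -0.34 ± 0.13 (log2), and smc4 was higher by 0.42 ± 0.17. The smallest adjusted p among them was 0.1. A second probe set of ccnd1 gave a difference of -0.26 at 3 dpi, with an unadjusted limma p of 0.144. Without skull 3 dpi replicate 2, pcna, rpa1 and aurka passed the test as lower.

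At 2 dpi, where both injuries gave their highest levels, the skull minus nostril difference had a median of -0.05 over the genes. Its 95% interval was -0.82 to 0.31 for tyms, -0.69 to 0.08 for ccnb1, -0.35 to 0.48 for top2a and -0.51 to 0.27 for pcna. These intervals reach differences of either sign.

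Within each injury the days were compared directly. From 1 to 3 dpi of the skull injury, ccnb1 rose by 0.60 ± 0.17 and nusap1 by 0.62 ± 0.20 and rpa1 fell by 0.33 ± 0.10 (adjusted p = 0.0285, 0.0438 and 0.0327), 3 of 33 genes where 10.7% of all probe sets were called. At an unadjusted p under 0.05, 9 were higher at 3 than at 1 dpi, 27.3% beside 8.41% of all probe sets, among them top2a, tk1, dut, cdk1 and gmnn. The 3 calls were all lost without skull 3 dpi replicate 1 or 4 or without skull 1 dpi replicate 1, those of ccnb1 and rpa1 also without skull 1 dpi replicate 3, and that of nusap1 without skull 1 dpi replicate 2. Between 1 and 3 dpi of the nostril injury limma called 0 genes (0.268% of all probe sets), and 4 were higher at an unadjusted p under 0.05 (4.51%), the nucleotide genes tyms, tk1 and dut and the cyclin ccnd1.

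The precursor genes had lower means at 7 than at 3 dpi. The difference of 7 minus 3 dpi was -0.76 ± 0.26 after skull and -1.08 ± 0.27 after nostril injury for tyms, and -0.32 ± 0.12 and -0.47 ± 0.13 for rrm1. None of these passed the test, with adjusted p-values of 0.0538 and 0.0622 for tyms and 0.0776 and 0.0756 for rrm1. limma called 0 genes in either comparison, where 11.5% (skull) and 0.75% (nostril) of all probe sets were called, and 6 and 5 genes were lower at an unadjusted p under 0.05, beside 9.48% and 6.85%. An overall F test over the 9 groups called rrm1, tyms and tk1, 3 of 33 where it called 10.4% of all probe sets, and 11 members reached an unadjusted p under 0.05, as did 27.6% of all probe sets.

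Other cell cycle genes, from lists that are separate from the 45, gave calls at skull 3 dpi and also at nostril 1 and 2 dpi. Of 29 tested S phase genes, 4 rose at skull 3 dpi, where 3.1% of all probe sets did: gins1 of the helicase complex by 0.64, the chromatin assembly subunit chaf1a by 0.40, the mismatch repair gene msh6 by 0.52 and the RNase H2 subunit rnaseh2a by 0.55 (adjusted p = 0.00894, 0.0269, 0.00286 and 0.0103). chaf1a also rose by 0.50 at nostril 1 dpi, where 0.836% of all probe sets were called. At skull 1 and 2 dpi and nostril 2 and 3 dpi it was 0.35 to 0.42 above intact. Every replicate there lay above the intact ones, but it was not called. Of 30 tested genes that were listed under G2 and mitosis, ect2, cdca7a and gtse1 rose at skull 3 dpi by 0.46, 0.50 and 0.66. From the same list cdc25b, the phosphatase that activates Cdk1, rose by 0.68 at nostril 2 dpi (adjusted p = 0.0369), where 0.529% were called. Some uncalled changes were of similar size: gtse1 was 0.68 above intact at nostril 2 dpi and cdc25b 0.54 at skull 2 dpi (adjusted p = 0.127 and 0.189). limma called 0 genes of either list lower than intact, and at an unadjusted p under 0.05 at most 2 of a list were lower in any comparison with intact brains, beside 3.41% to 16.2% of all probe sets.

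The genes that brake the cycle were called only at 7 dpi in the comparisons with intact brains, where limma called 0.708% (skull) and 1.75% (nostril) of all probe sets. Of 12 tested CDK inhibitors and exit genes, the antiproliferative btg1 rose by 0.50 at both skull and nostril 7 dpi, and btg2 rose by 1.85 at nostril 7 dpi and had a change of 1.21 at skull 7 dpi that did not pass the test. At 2 dpi btg1 was 0.31 (skull) and 0.34 (nostril) above intact, with every replicate above the intact ones (adjusted p = 0.203 and 0.0873). The change of ccng1 at 7 dpi was -0.73 after skull (adjusted p = 0.067) and -0.73 after nostril injury (adjusted p = 0.0497). The skull minus nostril difference of btg2 at 7 dpi was -0.64 ± 0.36 (adjusted p = 1). limma called 0 of these 12 genes against intact brains before 7 dpi, where at most 2 were higher and 2 lower at an unadjusted p under 0.05. Of all probe sets, 3.66% to 9.39% were higher and 3.41% to 16.2% lower in these comparisons. Of 23 tested genes of G1 entry, E2F and pocket proteins, 1 rose against intact brains, mycb, by 0.59 at nostril 7 dpi (adjusted p = 0.0493), beside the 1.75% of all probe sets called there.

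Markers of other cell types moved in the same samples. Of 16 tested microglia and macrophage markers, 8 rose at skull 2 dpi, 10 at nostril 2 dpi, 14 at skull 3 dpi and 1 at nostril 3 dpi, where 0.302%, 0.529%, 7.93% and 0.0861% of all probe sets were called, and 10 and 4 rose, with 1 falling each time, at skull and nostril 1 dpi (0.612% and 0.836% of all), when limma called 0 of the 33 cell cycle genes. At an unadjusted p under 0.05, 14, 14, 16 and 14 of the 16 were higher at skull 2, nostril 2, skull 3 and nostril 3 dpi, beside 5.07%, 7.46%, 9.39% and 3.66% of all probe sets. Their mean was 7.26, 7.66, 7.10 and 7.00 in the skull 3 dpi replicates and 7.72, 6.76 and 7.03 in the nostril 2 dpi replicates, against 5.96 to 6.30 in intact brains. In both the microglial markers and the 33 cell cycle genes, the highest of their groups were intact replicate 4 and nostril 1 dpi replicate 2. So were nostril 2 dpi replicate 1, skull 3 dpi replicate 2 and skull 7 dpi replicate 1. By contrast, replicate 1 of nostril 3 dpi was the highest of its group in the cell cycle genes and the lowest in the markers. Replicate 1 of skull 1 dpi and replicate 1 of nostril 7 dpi were the reverse. At skull 2 dpi the highest replicate differed between the 2 sets. Of the replicates highest in both sets, those of intact, nostril 1 and 2 and skull 3 dpi were also highest in the neutrophil markers. Those of nostril 1 and 2 and skull 3 dpi were also highest in oligodendrocyte progenitor markers, and those of intact and skull 7 dpi in ependymoglia markers.

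Of 8 tested markers of oligodendrocyte progenitors 0 were called in any comparison with intact brains. At an unadjusted p under 0.05, 5 were higher at nostril 2 dpi, beside 7.46% of all probe sets. The mean of the 8 was 6.55, 6.41 and 6.46 there and 6.41, 6.40 and 6.29 at skull 2 dpi, against 6.08 to 6.29 in intact brains. Their mean was also above every intact value at nostril 3 dpi, 6.33 to 6.39, and at skull 7 dpi, 6.34 to 6.44, when the mean of the 33 cell cycle genes overlapped intact. Of 14 tested ependymoglia markers 1, gfap, rose by 1.42 at nostril 1 dpi, where 0.836% of all probe sets were called. At skull 3 dpi 4 fell (gja1b, glula, cyp19a1b and id1), beside 4.83% of all probe sets called lower. At nostril 7 dpi 2 fell (s100b and id1), where 1.75% were called. The mean of these 14 markers was 8.78, 8.79, 8.49 and 8.84 at skull 3 dpi and 8.67, 8.71 and 8.72 at nostril 7 dpi, against 8.77 to 9.25 in intact brains. Of 6 tested neutrophil markers 1 and 2 rose at skull and nostril 1 dpi, 1 at nostril 2 dpi (mmp9) and 2 at skull 3 dpi (mmp9 and ncf1). In these comparisons 0.612%, 0.836%, 0.529% and 7.93% of all probe sets were called. Of 8 red blood cell markers 3 rose at skull 1 dpi, beside the same 0.612%. Of 2 tested T and NK cell markers 0 were called, with the defining cd4-1 and cd8a under the level filter. The mean of 14 tested neuron markers was 9.30 to 9.36 at skull 2 dpi and 9.22 to 9.53 at nostril 2 dpi. Intact brains had 8.85 to 9.29, and skull 7 dpi 9.33 to 9.39. For 6 tested myelin markers the mean was 7.37 to 7.67 and 7.42 to 7.63 at skull and nostril 2 dpi, against 7.08 to 7.45 in intact brains. The part of these cell types in the levels of the cell cycle genes was not tested.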

How the data were processed

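The deposited values are log2 intensities, which the authors made from Affymetrix Zebrafish Gene 1.0 ST arrays by RMA in Expression Console 1.3 (sketch quantile normalization across arrays and median polish), with probe sets annotated on Zv9. This normalization removes any shift shared by all probe sets, so a change is relative to the rest of the array. No scan date or batch is in the labels. Intact replicate 1 is the mean of its 2 technical arrays, so the 30 arrays gave 29 replicates in 9 groups.

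limma 3.58.1 in R 4.3.3 was fitted to all 9 groups together (20 residual degrees of freedom), with Benjamini-Hochberg adjustment over the 40670 probe sets with a linear group mean above 20 in at least 1 group. A call is an adjusted p under 0.05, errors are standard errors of the fit unless SD is given, and the fit was tested on simulated data. The alternatives changed the samples fitted, the technical array, normalization, block, weights, moderation, filter and threshold. Figures were drawn with matplotlib 3.10.9 in Python 3.11.15.

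The gene list, the other lists and the tests were chosen with earlier results of these data known. Values are given per replicate for pcna, top2a, cdk1, ccnb1 and ccnd1, for called genes and for the gene with the largest and the smallest change in each comparison. Genome positions, sequences and promoter motifs were not analysed here.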

Additional observations from a re-analysis of the deposited data

Results flagged for a closer look

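In groups of 4 replicates, 1 replicate stood far from the other 3 in 2 of 66 gene and group combinations, where chance flags about 1 in 20. The dUTPase gene dut had a log2 level of 7.25 in intact replicate 4, against 6.52 to 6.61 in the other intact replicates. The cyclin gene ccna2 had a log2 level of 6.2 in skull 3 dpi replicate 1, against 4.96 to 5.14 in the others.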

How the results depend on the processing

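The 20 changes of named genes that were recomputed were, for each gene, that against intact with the smallest p and any called one. None turned its sign under the alternatives run, which this choice made likely beforehand. Of 391 such values 345 kept their side of the threshold, 40 lost it and 6 gained it. All losses fell on called changes, 9 of 20 values for tyms and 7 of 20 for ccnb1 at skull 3 dpi. For skull 3 minus 1 dpi they were 7, 9 and 8 of 19 for ccnb1, rpa1 and nusap1. Of 442 counts 379 stayed within 1.5 times, among them counts that stayed at 0. Leaving out 1 replicate at a time gave 0 to 2 called genes at skull 3 dpi, 0 to 1 at nostril 2 dpi, 0 to 3 for skull minus nostril at 3 dpi, 0 to 4 for skull 3 minus 1 dpi, 0 to 2 for skull 7 minus 3 dpi and 2 to 6 for the F test, and 0 in the other comparisons.

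Fitting only the compared groups gave 0 calls at skull 3 dpi and 0 for skull 3 minus 1 dpi. Without skull 3 dpi in the fit, 1 gene, tyms, was called at nostril 2 dpi and 1 for nostril 7 minus 3 dpi. With technical array 1 alone, 1 was called at skull 3 dpi and 1 for skull 7 minus 3 dpi. Median centring gave 1 at nostril 2 dpi, and a further quantile normalization 5 for skull 3 minus 1 dpi, 3 for skull 7 minus 3 dpi and 5 for the F test. Array weights gave 1 at nostril 2 dpi, 0 at skull 3 dpi, 0 for skull 3 minus 1 dpi and 1 for nostril 7 minus 3 dpi. With no level filter there was 1 at skull 3 dpi and 1 for skull 3 minus 1 dpi. With a linear mean above 40 there were 5 for skull 3 minus 1 dpi, 1 for nostril 7 minus 3 dpi, 1 for skull 7 minus 3 dpi and 6 for the F test. At an adjusted p under 0.10 there were 1 at nostril 2 dpi, 4 at skull 3 dpi, 8 for skull 3 minus 1 dpi, 2 for nostril 7 minus 3 dpi, 5 for skull 7 minus 3 dpi and 9 for the F test. The criteria of the methods (unadjusted p under 0.05 and a fold above 1.6) gave tyms alone, 1 gene, at skull 2 and 3 dpi, nostril 2 and 3 dpi, nostril 3 minus 1 dpi and 7 minus 3 dpi of both injuries, and 0 for skull 3 minus 1 dpi. By these criteria 442 and 926 of the 40670 probe sets were higher than intact at skull 2 and 3 dpi. At nostril 2 and 3 dpi 557 and 389 were. Under the other settings of this section the share of all probe sets called was not taken. The counts there show only how calls depend on the processing. The cause of these shifts was not tested.

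No pairing by replicate number was seen: deviations of same-numbered samples correlated at a median of -0.00223 over 109 pairs, and of others at 0.00387 over 264. These medians cannot show whether samples were processed in sets. With the replicate block 1 gene was called for skull minus nostril at 3 dpi, ccnd1, and 1 for skull 3 minus 1 dpi, gmnn.

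The counts at an unadjusted p under 0.05 were recomputed under alternatives chosen after seeing the data. Leaving out 1 replicate gave 8 to 15 at skull 2 dpi, 4 to 19 at nostril 2 dpi, 4 to 9 at skull 3 dpi and 1 to 6 at nostril 3 dpi. The nostril 2 dpi count was 10 with only the compared groups fitted, the nostril 3 dpi count 7 with median centring and 8 with the replicate block, and the skull 3 dpi count 11 with further quantile normalization. Array number limits the precision, and dim probe sets such as cdk1 and chaf1b lie close to the level filter.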
